A study of Homo sapiens with 12 samples.

Results

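The genes described here are 35 genes of homologous recombination, the Fanconi anemia pathway and mismatch repair, read in 12 RNA-seq libraries of DU145 cells. They were chosen by name, by matching the Ensembl identifiers of the count table to a list of symbols, and make up 35 of the 28747 genes in the table, of which 26153 carry a symbol. DU145 is an established human prostate cancer line. The libraries fall into 4 groups of 3, namely adherent shCtrl, adherent shSigma, tumor sphere shCtrl and tumor sphere shSigma. shCtrl cells carry a control short hairpin RNA, and shSigma cells carry the study's knockdown hairpin. All the cells were stable lines made with lentiviral particles and puromycin selection. Adherent cells grew attached to plastic, whereas tumor spheres grew in serum-free medium with B-27, insulin, FGF2 and EGF on a surface that prevents attachment. The shSigma groups therefore rest on a knockdown and not on a knockout, and the sources used here do not say which of the study's hairpins was sequenced or whether the lines were clones. Since each hairpin group came from stable selected cells, effects of the hairpin and differences between the lines cannot be told apart. In what follows, knockdown names the comparison of shSigma with shCtrl cells.

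Homologous recombination repairs broken DNA ends by copying the sister chromatid, so it works in cells that have replicated their DNA. Nucleases resect the end, the BRCA proteins load a recombinase on the exposed strand, and motor proteins and helicases complete and resolve the exchange. The Fanconi anemia pathway removes crosslinks between the strands by attaching ubiquitin to the FANCD2-FANCI pair, and mismatch repair corrects copying errors behind the replication fork. Many of these genes are transcribed more in dividing cells, and tumors that lose some of them, in the prostate too, are known for their sensitivity to PARP inhibitors.

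The total count per library ranged from 23668070 to 26957777 in adherent shCtrl, from 19542016 to 22006759 in adherent shSigma, from 16472722 to 19164645 in tumor sphere shCtrl and from 18626387 to 19698970 in tumor sphere shSigma. Levels are given as CPM, the usual unit of a gene's count relative to the library's total count, after TMM scaling over the 12 libraries, and the lowest count of a repair gene in a library was 58. The correlation between replicates of log2 CPM ranged from 0.988 to 0.998. Adherent shSigma replicate 3 and adherent shCtrl replicates 1 and 3 stood farthest from the others of their groups. The epithelial genes KRT8, KRT18, KRT19, EPCAM and CDH1 were present in every library. KRT5, a basal cell keratin, was at or near 0. Of 13 stromal, endothelial and blood markers, LUM was at 0 in every library and the summed level of the list was 4.82 to 10.6 CPM in adherent cells, 22.2 to 28.1 CPM in tumor sphere shCtrl and 11.2 to 15.6 CPM in tumor sphere shSigma, mostly from COL1A1. The epithelial markers also moved with the groups, and not all in the same direction. The summed level of the 6 genes, KRT5 included, was 878 to 964 CPM in adherent shCtrl and 1141 to 1453 CPM in adherent shSigma. It was 2285 to 2349 CPM in tumor sphere shCtrl and 897 to 954 CPM in tumor sphere shSigma. In adherent cells this sum was higher with shSigma, whereas CDH1 was lower. CDH1 was 26.8, 26.8 and 26.9 CPM in adherent shCtrl, 10.7 to 13.9 CPM in adherent shSigma, 678 to 770 CPM in tumor sphere shCtrl and 23.9 to 30.1 CPM in tumor sphere shSigma. In bulk RNA, fewer cells of a kind and less RNA in each cell cannot be told apart.

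Adjusted p-values were computed by the quasi-likelihood method of edgeR and corrected after Benjamini and Hochberg for every gene tested. Exceptions are the values named as from DESeq2 and, as described further on, those with a regional median subtracted. A gene is called at an adjusted p under 0.05, and an error behind a log2 fold change is its standard error.

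In adherent cells, 25 of the 35 repair genes fell after knockdown and 0 rose. Among the 13764 genes tested, 27.7% were called lower and 22.3% higher. Without shSigma replicate 1 these shares were 17.8% and 19.2%, with 21 of the repair genes lower and 0 higher, and DESeq2 gave 17.3% and 16.7%, with 23 lower. The median log2 fold change was -0.57 over the repair genes and -0.01 over all genes tested. With a log2 difference over 1 required as well, 8 of the repair genes were called lower, against 6.13% of all genes tested. In tumor spheres the same knockdown gave 15 genes lower and 7 higher, beside 30.9% and 30.2% of the 13774 genes tested, and the median log2 fold change of the repair genes was -0.09. With the larger difference required, 1 of the repair genes, FANCF, was called lower in tumor spheres, against 7.17% of all genes tested. All 35 genes passed the filter on low counts in every comparison.

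The 35 genes divide by what they did in both cultures. The share of all genes with the same pair of calls was not computed, so the counts below only sort these genes. FANCD2, EXO1, RAD54L, RAD54B, FANCM, BRIP1, CHEK1, RAD51AP1, FANCA, FANCF, NBN, RAD51B, FANCG, RAD51C and MRE11 were called lower in both, which makes 15. BRCA1, BRCA2, BLM, FANCI and XRCC2 were lower in adherent cells and higher in tumor spheres, which makes 5, although the adherent call of XRCC2 was lost in 10 of 14 alternatives, DESeq2 among them. BARD1, PALB2, CHEK2, RBBP8 and WRN were called only in adherent cells, where they fell, and ATR and FANCL only in tumor spheres, where they rose. ATM, FANCC, FANCE, MSH6, PMS2, RAD50, RAD51D and XRCC3 were called in neither. A call in only 1 culture is not a difference between cultures, which is tested on its own below.

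**Figure D1:**
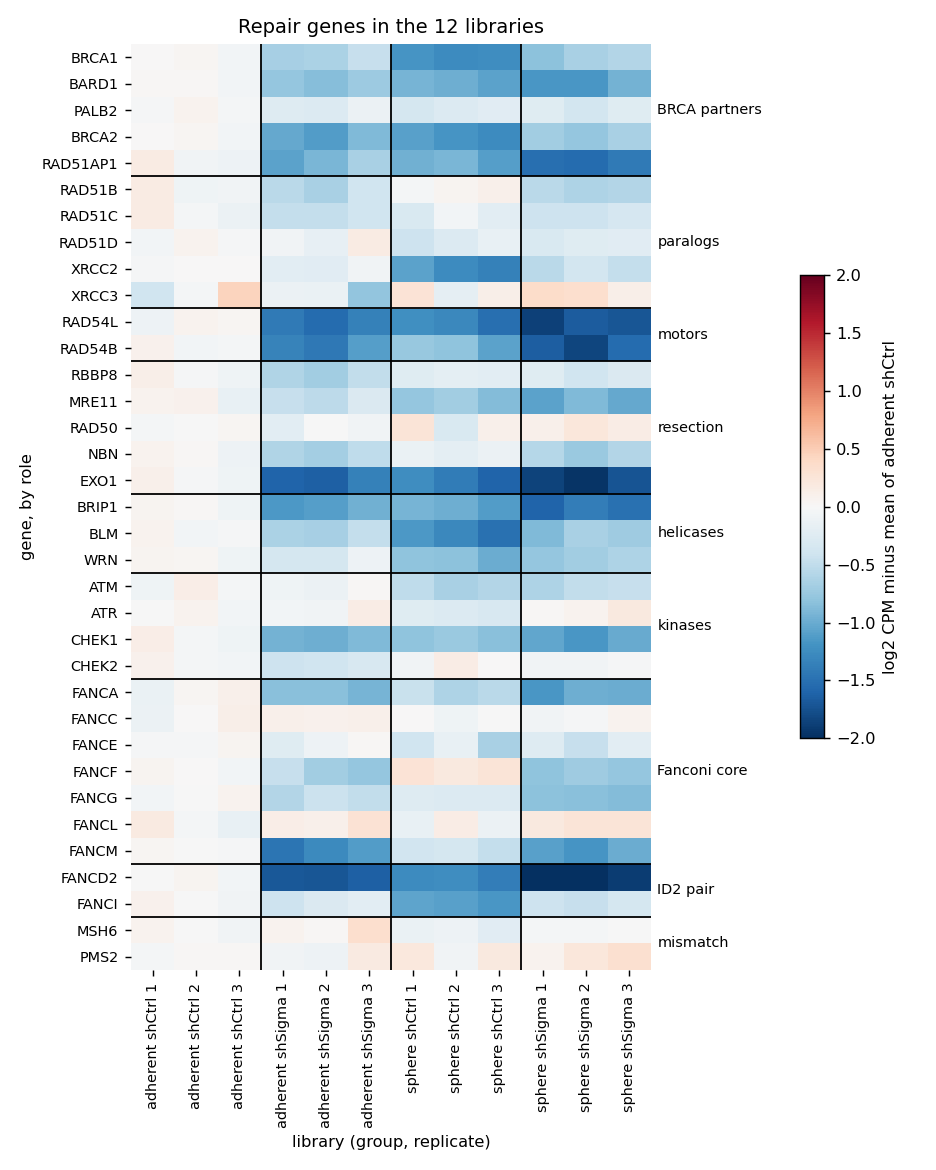
Heat map of the 35 repair genes (rows, ordered by role) in the 12 libraries (columns, grouped by culture and hairpin, replicate numbers shown). The colour is log2 CPM minus the mean log2 CPM of the 3 adherent shCtrl libraries, from -2 (blue) to 2 (red), with values past either end drawn in the end colour. FANCD2, EXO1, RAD54L and RAD54B are blue in all 9 libraries outside adherent shCtrl, whereas FANCC and MSH6 stay pale throughout.

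**Figure D2:**
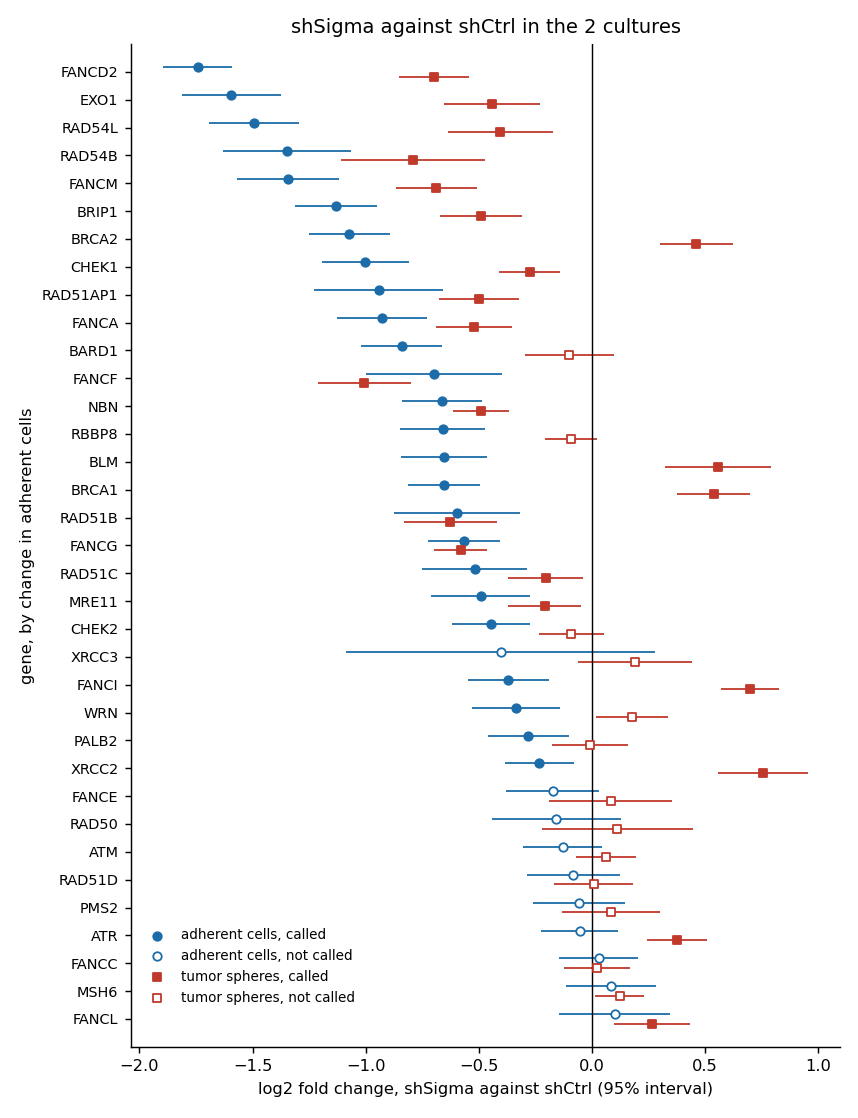
Log2 fold change of each of the 35 genes in shSigma against shCtrl, with its 95% interval, in adherent cells (blue circles) and tumor spheres (red squares), ordered by the change in adherent cells. Filled symbols were called at an adjusted p under 0.05 and open symbols were not. The blue values run from -1.74 for FANCD2 to 0.10 for FANCL, and the red values run from -1.01 for FANCF to 0.76 for XRCC2.

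The BRCA1 complex and the proteins that load the recombinase all fell in adherent cells, 5 of 5 genes. BRCA1, a ubiquitin ligase that steers breaks toward recombination, was 97.0, 98.5 and 92.9 CPM in adherent shCtrl and 60.7, 61.7 and 69.6 CPM in adherent shSigma (log2 fold change -0.65 ± 0.07, adjusted p = 0.000218). In tumor spheres the order was the opposite, with 42.3, 40.03 and 40.7 CPM in shCtrl and 54.3, 61.1 and 63.8 CPM in shSigma (0.54 ± 0.07, adjusted p = 5.80e-05). All 3 adherent shCtrl libraries lay above the other 9, and all 3 tumor sphere shCtrl libraries lay below the other 9.

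BRCA2, which loads the recombinase on resected DNA, had the same shape. It was 65.4, 66.9 and 63.0 CPM in adherent shCtrl, 32.04, 29.9 and 35.3 CPM in adherent shSigma, 30.8, 28.6 and 27.4 CPM in tumor sphere shCtrl and 40.1, 38.1 and 41.7 CPM in tumor sphere shSigma. With knockdown it was lower by 1.07 on the log2 scale in adherent cells (log2 fold change -1.07 ± 0.08, adjusted p = 4.08e-05) and higher in tumor spheres (0.46 ± 0.07, adjusted p = 0.000190). The ranges of adherent shSigma and tumor sphere shCtrl overlapped, and the other groups were separate.

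BARD1, the partner of BRCA1, fell from 38.6 ± 1.15 to 22.5 ± 1.00 CPM (mean ± SD, n = 3) in adherent cells (log2 fold change -0.84, adjusted p = 0.000119). In tumor spheres it was 19.4 ± 0.887 CPM in shCtrl and 18.1 ± 1.58 CPM in shSigma, with a log2 fold change of -0.10 and a 95% interval from -0.30 to 0.10 (adjusted p = 0.357). The log2 ratio of BRCA1 to BARD1 was 1.32 ± 0.00473 (SD, n = 3) in adherent shCtrl, 1.51 ± 0.0765 in adherent shSigma, 1.08 ± 0.0546 in tumor sphere shCtrl and 1.72 ± 0.0970 in tumor sphere shSigma. The levels of the partners therefore parted most between the tumor sphere groups. PALB2, the bridge between BRCA1 and BRCA2, had a smaller value (-0.28 ± 0.08, adjusted p = 0.0187) in adherent cells, and -0.01 with an interval from -0.17 to 0.16 in tumor spheres. RAD51AP1, which helps the recombinase to invade the sister strand, fell in both cultures, by 0.94 and by 0.50 on the log2 scale (adjusted p = 0.000565 and 0.000226).

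Of the 5 recombinase paralogs, which form complexes that stabilize the recombinase filament, RAD51B, RAD51C and XRCC2 fell in adherent cells. RAD51B had nearly the same value in both cultures, -0.60 ± 0.12 in adherent cells and -0.63 ± 0.09 in tumor spheres (adjusted p = 0.00461 and 0.000129). RAD51C fell by 0.52 and by 0.20 on the log2 scale, with adjusted p-values of 0.00369 and 0.0355. XRCC2 was 44.2, 45.2 and 45.4 CPM in adherent shCtrl, 38.9, 38.4 and 42.6 CPM in adherent shSigma, 21.4, 18.8 and 17.5 CPM in tumor sphere shCtrl and 30.8, 34.7 and 32.2 CPM in tumor sphere shSigma. No groups of this gene overlapped, and its rise in tumor spheres, 0.76 ± 0.09 (adjusted p = 2.08e-05), had the highest log2 fold change of the 35 genes. RAD51D and XRCC3 were called in neither culture. The libraries of XRCC3 spread from 23.7 to 42.4 CPM within adherent shCtrl, and its interval ran from -1.08 to 0.28.

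Both motor proteins of recombination, which move along DNA to remodel the paired strands, fell in both cultures. RAD54L was 34.3, 38.6 and 37.6 CPM in adherent shCtrl and 13.9, 12.7 and 14.5 CPM in adherent shSigma (-1.49 ± 0.09, adjusted p = 1.75e-05). In tumor spheres it was 15.7, 15.1 and 12.9 CPM in shCtrl and 10.1, 11.7 and 11.3 CPM in shSigma (-0.40 ± 0.11, adjusted p = 0.00610). The hairpin groups did not overlap in either culture. RAD54B, a low gene at 3.07 to 11.7 CPM, changed by -1.35 ± 0.12 and -0.79 ± 0.15 (adjusted p = 0.000110 and 0.000586).

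Among the genes of end resection, EXO1 had the lowest log2 fold change in adherent cells and NBN in tumor spheres. EXO1, a nuclease that extends the resected strand and also serves mismatch repair, was 108, 98.6 and 94.7 CPM in adherent shCtrl and 32.9, 32.2 and 39.4 CPM in adherent shSigma, a fall of 66.9% (log2 fold change -1.59 ± 0.09, adjusted p = 1.92e-05). In tumor spheres it was 42.5, 38.0 and 33.0 CPM in shCtrl and 27.7, 25.6 and 30.3 CPM in shSigma (-0.44 ± 0.10, adjusted p = 0.00203). RBBP8, which encodes CtIP and starts resection, fell in adherent cells (-0.66 ± 0.08, adjusted p = 0.000437) and had -0.09 with an interval from -0.21 to 0.02 in tumor spheres. The 3 genes of the complex that binds broken ends were not tested against each other. NBN fell in both cultures (-0.66 ± 0.08 and -0.49 ± 0.06, adjusted p = 0.000319 and 1.57e-05) and so did MRE11 (-0.49 ± 0.09 and -0.21 ± 0.07, adjusted p = 0.00366 and 0.0279). RAD50 was not called, with intervals from -0.44 to 0.13 and from -0.22 to 0.45, at a level of only 4.25 to 6.26 CPM. Another gene model on the same strand shares 76.9% of its exon bases, so its reads may have been split or left out.

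The helicases separated in tumor spheres. BRIP1, which unwinds DNA at crosslinks and binds BRCA1, was 76.6, 75.4 and 70.1 CPM in adherent shCtrl and 33.4, 34.6 and 38.2 CPM in adherent shSigma (-1.13 ± 0.08, adjusted p = 3.59e-05). It also fell in tumor spheres, by less, from 38.8, 37.6 and 34.2 CPM in shCtrl to 24.4, 28.2 and 26.3 CPM in shSigma (-0.49 ± 0.08, adjusted p = 0.000295). BLM, which dissolves recombination intermediates, fell in adherent cells (-0.65 ± 0.08, adjusted p = 0.000492) and rose in tumor spheres, from 14.6, 13.3 and 11.6 CPM in shCtrl to 17.6, 20.7 and 19.8 CPM in shSigma (0.56 ± 0.11, adjusted p = 0.000760). WRN, a helicase with a nuclease domain, fell in adherent cells (-0.34 ± 0.08, adjusted p = 0.0116). Its value in tumor spheres was 0.18 with an interval from 0.02 to 0.34 (adjusted p = 0.0511).

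The damage kinases did not move as a group. CHEK1, the checkpoint kinase downstream of ATR, fell from 127 ± 10.2 to 66.2 ± 2.38 CPM (mean ± SD, n = 3) in adherent cells (-1.001 ± 0.08, adjusted p = 7.32e-05) and from 72.9 ± 2.20 to 60.4 ± 3.49 CPM in tumor spheres (-0.27 ± 0.06, adjusted p = 0.00212). CHEK2, the kinase downstream of ATM, fell in adherent cells only (-0.45 ± 0.07, adjusted p = 0.00182). ATR, which senses stalled forks, was 79.9, 78.0 and 75.7 CPM in tumor sphere shCtrl and 96.2, 99.7 and 108 CPM in tumor sphere shSigma (0.38 ± 0.06, adjusted p = 0.000192), and had -0.05 with an interval from -0.22 to 0.12 in adherent cells. ATM, which senses DNA breaks, was called in neither culture, with intervals from -0.30 to 0.04 and from -0.07 to 0.20.

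Of the 7 Fanconi core genes, FANCA, FANCF, FANCG and FANCM fell in both cultures. FANCM, the translocase that anchors the core complex to DNA, was 36.0, 34.9 and 34.4 CPM in adherent shCtrl and 12.8, 14.4 and 16.3 CPM in adherent shSigma (-1.34 ± 0.10, adjusted p = 4.26e-05), and it fell by 0.69 on the log2 scale in tumor spheres (adjusted p = 1.98e-05). FANCA, a scaffold subunit, fell by 0.93 and by 0.52 (adjusted p = 0.000119 and 0.000109). FANCG had nearly the same log2 fold change in both, -0.57 ± 0.07 and -0.58 ± 0.05 (adjusted p = 0.000401 and 2.22e-06).

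FANCF, an adaptor of the core complex, was the gene with the lowest fold change in tumor spheres. It was 16.3, 15.6 and 16.2 CPM in tumor sphere shCtrl and 7.76, 8.27 and 7.95 CPM in tumor sphere shSigma (-1.01 ± 0.09, adjusted p = 2.55e-06), beside -0.70 ± 0.13 in adherent cells (adjusted p = 0.00316). FANCL, the ubiquitin ligase of the complex, rose in tumor spheres (0.27 ± 0.08, adjusted p = 0.0106) and had an interval from -0.14 to 0.35 in adherent cells. FANCC and FANCE, which link the core to its substrate, were called in neither. The core genes thus held members called lower in both cultures, a member called higher and members with no call.

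The FANCD2-FANCI pair, the substrate of that ligase, parted in its measured levels. FANCD2 lies at chr3:10026370-10101932 on the plus strand and FANCI at chr15:89243945-89317261 on the plus strand (GRCh38). FANCD2 was 148, 156 and 145 CPM in adherent shCtrl and 46.3, 45.6 and 48.2 CPM in adherent shSigma, a fall of 70.1% and the lowest log2 fold change of the 35 genes (-1.74 ± 0.06, adjusted p = 4.04e-06). In tumor spheres it was 62.8, 63.2 and 57.1 CPM in shCtrl and 35.6, 37.7 and 39.95 CPM in shSigma (-0.70 ± 0.07, adjusted p = 5.04e-06). No groups of FANCD2 overlapped.

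FANCI was 127, 120 and 115 CPM in adherent shCtrl and 90.1, 98.5 and 104 CPM in adherent shSigma (-0.37 ± 0.08, adjusted p = 0.00526). Its levels in tumor spheres went up from 57.7, 56.9 and 53.5 CPM in shCtrl to 90.9, 87.8 and 94.7 CPM in shSigma (0.70 ± 0.06, adjusted p = 1.05e-06). The log2 ratio of FANCD2 to FANCI was 0.31 ± 0.0820 (SD, n = 3) in adherent shCtrl, -1.06 ± 0.0876 in adherent shSigma, 0.12 ± 0.0295 in tumor sphere shCtrl and -1.27 ± 0.0703 in tumor sphere shSigma. The ratio was above 0 in all shCtrl libraries and below 0 in all shSigma libraries, in both cultures. These ratios compare counts not divided by gene length, so their sign depends on length and only their differences between groups carry over to transcripts. Once the shift of their chromosomal neighbourhood was taken off, as described further on, the adherent log2 fold changes were -1.18 for FANCD2 and -0.98 for FANCI, much closer to each other, and those in tumor spheres were -0.24 and 0.35.

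MSH6 and PMS2, which recognize a mismatch and direct its removal, were not called under either knockdown comparison. MSH6 was 158 to 173 CPM in adherent shCtrl, 167 to 209 CPM in adherent shSigma, 141 to 153 CPM in tumor sphere shCtrl and 160 to 163 CPM in tumor sphere shSigma. Its log2 fold change was 0.08 (interval from -0.12 to 0.28) in adherent cells and 0.12 (interval from 0.01 to 0.23, adjusted p = 0.0513) in tumor spheres. PMS2 had -0.06 (interval from -0.26 to 0.15) and 0.09 (interval from -0.13 to 0.30).

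**Figure D3:**
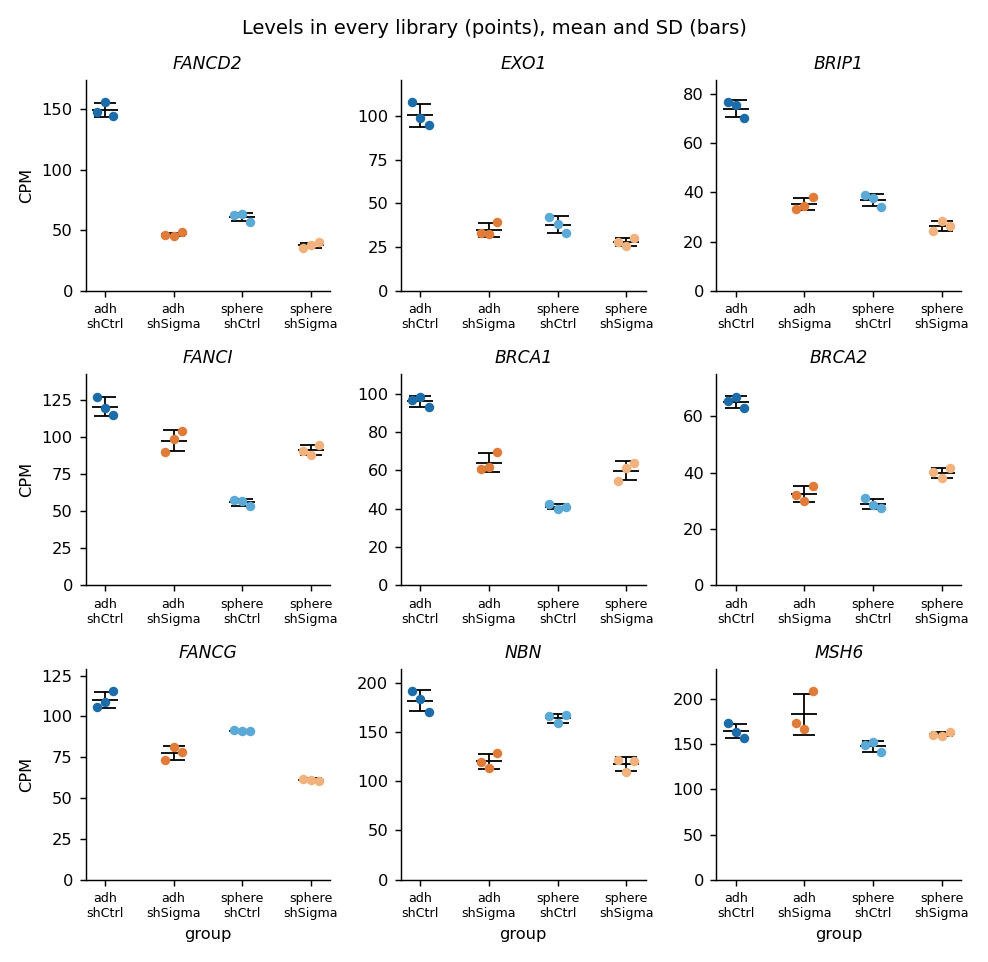
CPM of 9 of the repair genes in each library (points), with the mean and SD (n = 3) of each group (black bars). The axes start at 0, and adh stands for adherent. FANCD2, EXO1 and BRIP1 are highest in adherent shCtrl and lowest in tumor sphere shSigma. FANCI, BRCA1 and BRCA2 are lowest in tumor sphere shCtrl. FANCG and NBN fall with the hairpin in both cultures, and the groups of MSH6 lie close together.

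Some of these calls were lost under other settings. Of 14 alternatives that kept the adjusted p as the only threshold, 10 lost the call of XRCC2 in adherent cells, among them DESeq2 (adjusted p = 0.192), both other scalings (0.0673 and 0.0727), no filter on low counts (0.0972) and 1 fit of all libraries (0.0980), with the highest adjusted p at 0.308. For PALB2, 7 of the 14 lost it, among them DESeq2 (adjusted p = 0.140) and no filter on low counts (0.0582). In adherent cells, PALB2, XRCC2 and WRN lost their call without shCtrl replicate 1, shCtrl replicate 2, shSigma replicate 1 or shSigma replicate 2, and FANCI without shCtrl replicate 2 or shSigma replicate 1. In tumor spheres, RAD51C lost its call with DESeq2 and without shCtrl replicate 2 or 3 or any shSigma library, and MRE11 without shCtrl replicate 1 or 2 or shSigma replicate 1 or 3, and both lost it in 1 fit of all libraries.

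Whether the knockdown comparison differed in tumor spheres was tested on the 12 libraries with an interaction term for hairpin and culture. For 17 of the 35 genes the log2 fold change was higher in tumor spheres than in adherent cells by an adjusted p under 0.05, and for 0 it was lower, beside 12.7% called higher and 15.6% called lower among the 14175 genes tested. Without adherent shSigma replicate 3 the share called higher was 19.1% and 21 of the repair genes were called higher. The median difference was 0.37 over the repair genes and -0.03 over all genes tested. With a difference over 1 required as well, 6 repair genes remained, against 2.5% of all genes tested. They were BRCA2 (1.47 ± 0.11, adjusted p = 4.94e-07), BLM (1.15 ± 0.14, adjusted p = 4.51e-05), BRCA1 (1.13 ± 0.11, adjusted p = 4.28e-06), EXO1 (1.09 ± 0.15, adjusted p = 0.000113), RAD54L (1.03 ± 0.14, adjusted p = 0.000104) and FANCI (1.01 ± 0.10, adjusted p = 5.57e-06).

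The difference took different forms in these 6 genes. For BRCA1, BRCA2, BLM and FANCI the knockdown effect changed sign, whereas EXO1 and RAD54L fell in both cultures and fell less in tumor spheres. FANCD2 (0.99 ± 0.10, adjusted p = 4.98e-06) and XRCC2 (0.93 ± 0.12, adjusted p = 6.24e-05) came next, followed by BARD1 (0.68), CHEK1 (0.66), FANCM (0.59), BRIP1 (0.58), RBBP8 (0.50), WRN (0.45), ATR (0.37), FANCA (0.35) and CHEK2 (0.30). FANCG had a difference of -0.07 with an interval from -0.26 to 0.11, RAD51B had -0.09 with an interval from -0.41 to 0.22, and FANCF had -0.37 with an interval from -0.67 to -0.07 (adjusted p = 0.0658).

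The calls of CHEK2 and FANCA were lost without adherent shCtrl replicate 2 and without tumor sphere shSigma replicate 2 or 3, that of CHEK2 also without adherent shSigma replicate 1 or 2, tumor sphere shCtrl replicate 1 or 3 or tumor sphere shSigma replicate 1, and that of ATR without tumor sphere shSigma replicate 3. CHEK2 and FANCA also lost their calls with a block by replicate number.

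Culture alone was compared within each hairpin. In shCtrl cells, 24 of the 35 genes were lower in tumor spheres than in adherent cells and 0 higher, beside 26.3% lower and 27.4% higher among the 13800 genes tested, with a median log2 fold change of -0.40 against 0.04 over all genes tested. With a log2 difference over 1 required as well, 9 of the repair genes were lower, against 4.96% of all genes tested. EXO1 had the lowest value (-1.41 ± 0.10, adjusted p = 2.00e-05), followed by RAD54L (-1.34 ± 0.10), BLM (-1.31 ± 0.10), FANCD2 (-1.29 ± 0.07), BRCA1 (-1.23 ± 0.06) and XRCC2 (-1.23 ± 0.09). RAD51B, FANCC, FANCL and XRCC3 had values between -0.04 and 0.04 and were not called, and FANCF had 0.24 with an adjusted p of 0.0507.

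In shSigma cells, 11 of the 35 genes were lower in tumor spheres and 3 higher, beside 25.2% lower and 21.9% higher among the 13622 genes tested, with a median of -0.11 against 0.00 over all genes tested. RAD51AP1 had the lowest value (-0.59 ± 0.10, adjusted p = 0.00229) and MRE11 came next (-0.54 ± 0.07, adjusted p = 0.000768). BRCA2 (0.33 ± 0.07, adjusted p = 0.00707), RBBP8 (0.31 ± 0.06, adjusted p = 0.00420) and CHEK2 (0.35 ± 0.05, adjusted p = 0.00122) were higher. Of these, BRCA2 and RBBP8 were lower in the shCtrl comparison. ATM, not called for the hairpin in either culture, was lower in tumor spheres with both hairpins (-0.59 ± 0.08 and -0.43 ± 0.06, adjusted p = 0.000396 and 0.000708).

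Several of the smaller culture calls were lost with 1 library left out. In shCtrl these were FANCE, RBBP8, PALB2 and RAD51D, without adherent shCtrl replicate 2, without tumor sphere shCtrl replicate 1 and without replicate 3 (FANCE, RBBP8) or replicate 2 (PALB2, RAD51D) of the latter group. In shSigma these were BARD1, EXO1 and RAD54L, without adherent shSigma replicate 1 or tumor sphere shSigma replicate 1 or 2, RAD54L also without tumor sphere shSigma replicate 3, and XRCC2 without tumor sphere shSigma replicate 1 or 3. BARD1, EXO1 and RAD54L also lost the shSigma call with DESeq2, and RAD54L lost it in 9 of 14 alternatives. With a block by replicate number, FANCE, RBBP8, PALB2 and RAD51D lost the shCtrl call. Without adherent shSigma replicate 3, which stood apart, 12 genes were lower and 7 higher in shSigma, beside 27.7% and 28.5% of all genes tested. Without tumor sphere shSigma replicate 1 there were 7 lower and 3 higher, beside 18.9% and 15.4%.

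Seen over the 4 groups, 25 of the 35 genes had their highest mean in adherent shCtrl. For 21 genes all 3 adherent shCtrl libraries lay above the other 9, against 12.9% of the genes tested on all libraries. They were BRCA1, BARD1, PALB2, BRCA2, RAD51AP1, XRCC2, RAD54L, RAD54B, RBBP8, MRE11, NBN, EXO1, BRIP1, BLM, WRN, CHEK1, FANCA, FANCG, FANCM, FANCD2 and FANCI. The lowest mean was in tumor sphere shSigma for 15 genes, in tumor sphere shCtrl for 13, in adherent shSigma for 6 and in adherent shCtrl for 1. The summed level of the 35 genes was 2579 ± 74.1 CPM (mean ± SD, n = 3) in adherent shCtrl, 1850 ± 114 in adherent shSigma, 1775 ± 35.6 in tumor sphere shCtrl and 1714 ± 43.98 in tumor sphere shSigma. Each knockdown comparison shares 3 libraries with each culture comparison, so their values are given side by side and are not separate evidence.

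Per kilobase of annotated exon, which allows levels to be set between genes, the mean over the 12 libraries was 36.6 CPM for RBBP8, 15.3 for FANCG, 14.6 for CHEK1 and 13.2 for CHEK2. The lowest were FANCM with 1.22, RAD54B with 1.18 and RAD50 with 0.506. Merged exons of all annotated transcripts were used, so genes with long alternative ends read low.

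The genes around the 35 were read next. For each gene the 40 tested genes closest to it on its chromosome were taken, and the median of their log2 fold changes was computed. In adherent cells this regional median ran from -0.59 around RAD54B to 0.80 around XRCC2 on chromosome 7, and in tumor spheres from -0.54 to 0.61 around the same genes. FANCI and BLM lie close together on chromosome 15 and had regional medians of 0.61 and 0.57 in adherent cells and 0.35 and 0.35 in tumor spheres. Around FANCD2 on chromosome 3 the values were -0.57 and -0.45, and around NBN they were -0.51 and -0.53. For the values below, the regional median was subtracted from each gene's log2 fold change, and a t test used the gene's own standard error. That error leaves out the spread of the subtracted median, so the adjusted p-values after subtraction may be too small.

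With the regional median subtracted, knockdown in adherent cells lowered 24 of the 35 genes and raised 0, beside 24.4% lowered and 21.5% raised among all genes tested. Knockdown in tumor spheres lowered 12 of the 35 and raised 7, beside 29.3% and 27.3%, so the share that fell there was near that of all genes. In the interaction 18 of the 35 differed in the higher direction and 0 in the lower, beside 14.2% and 14.5%. The SD of the log2 fold changes of the 35 genes went from 0.498 to 0.437 in adherent cells and from 0.443 to 0.328 in tumor spheres. FANCI kept its call in tumor spheres (0.35, adjusted p = 0.000320), as did BRCA1 (0.45, adjusted p = 0.000262) and BRCA2 (0.62, adjusted p = 2.11e-05). XRCC2 (0.14, adjusted p = 0.199) and BLM (0.21, adjusted p = 0.115) did not, nor did FANCA (-0.05, adjusted p = 0.613), RAD54B (-0.25, adjusted p = 0.163), RAD54L (-0.25, adjusted p = 0.0674) and NBN, whose value turned to 0.04 (adjusted p = 0.538). FANCD2 kept a difference of -1.18 in adherent cells (adjusted p = 1.72e-05) and -0.24 in tumor spheres (adjusted p = 0.0112). In adherent cells NBN (-0.16, adjusted p = 0.131) and RAD51B (-0.32, adjusted p = 0.0641) lost their calls, and XRCC2 went from -0.23 to -1.03 (adjusted p = 2.76e-05). Other genes gained a call, XRCC3 in adherent cells (-0.88, adjusted p = 0.0445) and MSH6 (0.20, adjusted p = 0.00442), ATM (0.18, adjusted p = 0.0270) and RBBP8 (-0.15, adjusted p = 0.0270) in tumor spheres, and RAD54B (0.54, adjusted p = 0.0476) in the interaction. What lies behind the shared shifts of neighbouring genes was not tested.

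**Figure D4:**
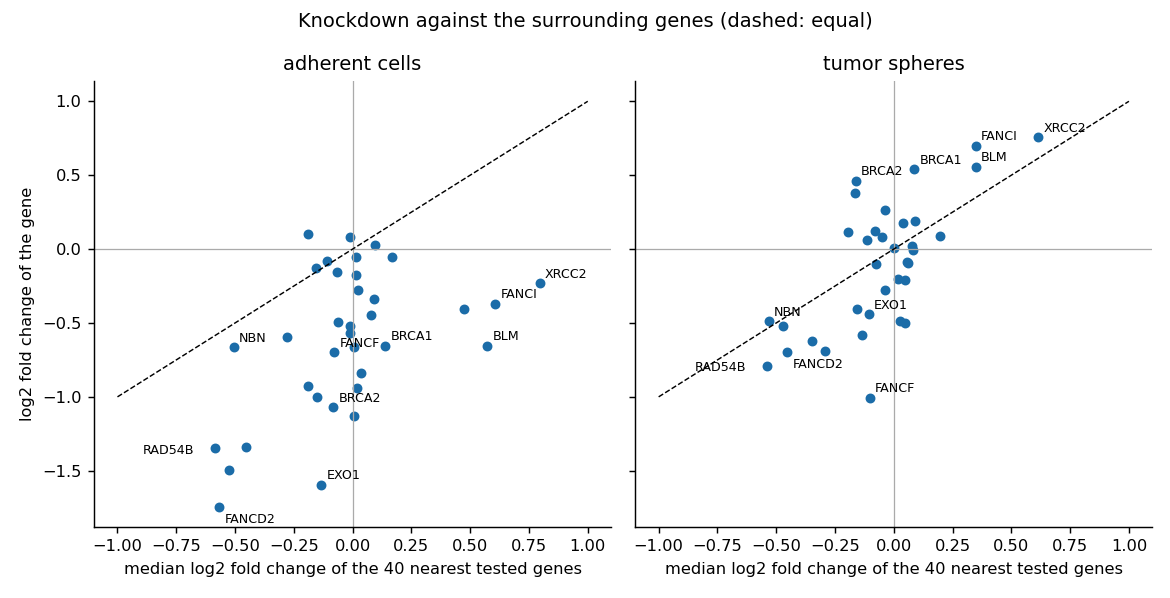
Log2 fold change of each of the 35 genes under knockdown (vertical axis) against the median log2 fold change of the 40 tested genes nearest to it on its chromosome (horizontal axis), in adherent cells (left) and tumor spheres (right). The dashed line marks equal values. In tumor spheres XRCC2, BLM, NBN and RAD54B lie near the line, and FANCF, BRCA1 and BRCA2 lie away from it at regional medians between -0.16 and 0.09.

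Other genes of the same pathways, taken from a list of 50 of which 47 or 46 were tested, held 26 that fell and 1 that rose with knockdown in adherent cells, and 14 that fell and 9 that rose in tumor spheres, with medians of -0.46 and -0.09. In adherent cells these are 55.3% and 2.13%, beside 27.7% and 22.3% of all genes tested. In tumor spheres they are 30.4% and 19.6%, beside 30.9% and 30.2%, so the share that fell was near that of all genes. UBE2T, the ubiquitin-conjugating enzyme that serves FANCL, fell in both cultures (-1.30 ± 0.11 and -1.07 ± 0.09, adjusted p = 8.07e-05 and 1.94e-06). USP1, which removes ubiquitin from FANCD2, fell in tumor spheres (-0.69 ± 0.06, adjusted p = 9.78e-07). ABRAXAS1, a subunit of a BRCA1 complex (1.15 ± 0.08, adjusted p = 3.76e-07), and FAAP100, a subunit of the Fanconi core (0.90 ± 0.16, adjusted p = 0.000815), rose in tumor spheres. EME2, a nuclease subunit, rose in adherent cells (1.00 ± 0.31, adjusted p = 0.0376).

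Repair pathways outside recombination held 20 of 57 tested genes that fell and 6 that rose in adherent cells (35.1% and 10.5%, beside 27.7% and 22.3% of all genes tested), with a median of -0.12. They gave 24 lower and 11 higher in tumor spheres (42.1% and 19.3%, beside 30.9% and 30.2%), with a median of -0.13. PRKDC, the kinase of end joining, fell in both cultures (-1.46 ± 0.08 and -0.88 ± 0.08, with adjusted p = 1.32e-05 and 1.45e-06). MUTYH, a glycosylase of base excision repair, fell in adherent cells (-1.06 ± 0.20, adjusted p = 0.00391), where SHLD1, a subunit of shieldin (0.68 ± 0.17, adjusted p = 0.0138), and NEIL1, another glycosylase (0.74 ± 0.19, adjusted p = 0.0149), rose. In tumor spheres TDP1, which frees trapped topoisomerase, fell (-0.66 ± 0.07, adjusted p = 1.24e-05), and MGMT, which removes alkyl groups (1.22 ± 0.10, adjusted p = 1.32e-06), and MPG, an alkyl-purine glycosylase (0.90 ± 0.12, adjusted p = 8.76e-05), rose.

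Cell cycle genes moved with the repair genes. Of 48 genes of DNA replication in S phase, 40 fell and 0 rose in adherent cells (median -0.89), and 28 fell and 5 rose in tumor spheres (median -0.24). Of 34 mitosis genes, 32 fell and 0 rose in adherent cells (median -1.01), and 24 fell and 3 rose in tumor spheres (median -0.26). Of all genes tested, 27.7% fell and 22.3% rose in adherent cells, and 30.9% fell and 30.2% rose in tumor spheres. In the interaction 32 of the S phase genes and 29 of the mitosis genes were called higher in tumor spheres and 0 lower, beside 12.7% higher and 15.6% lower over all genes tested. The summed level of the S phase genes was 4954 to 5069 CPM in adherent shCtrl, 2815 to 2942 CPM in adherent shSigma, 3189 to 3473 CPM in tumor sphere shCtrl and 2848 to 2941 CPM in tumor sphere shSigma. That of the mitosis genes was 6891 to 7309, 3747 to 4220, 3022 to 3456 and 2814 to 3023 CPM in the same order. The part of proliferation in the values of the repair genes was not tested.

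As single genes of proliferation, MKI67 was 513, 514 and 541 CPM in adherent shCtrl and 324, 338 and 399 CPM in adherent shSigma, and 216, 168 and 166 CPM in tumor sphere shCtrl and 222, 241 and 269 CPM in tumor sphere shSigma. It fell in adherent cells (-0.63 ± 0.07, adjusted p = 0.000334) and rose in tumor spheres (0.41 ± 0.11, adjusted p = 0.00884). PCNA, the sliding clamp of replication, fell in both (-0.98 ± 0.08 and -0.57 ± 0.06, adjusted p = 5.72e-05 and 6.63e-06). Under knockdown MKI67 thus took the direction of BRCA1 and BRCA2 in each culture, and PCNA that of FANCD2 and EXO1. Between cultures the directions differed. PCNA was not called in shCtrl cells (-0.05) and was higher in tumor spheres in shSigma cells (0.32, adjusted p = 0.00443). FANCD2 and EXO1 were lower in tumor spheres with both hairpins. MKI67 was lower there with both (-1.51 and -0.51), whereas BRCA2 was higher in shSigma cells. The knockdown value of MKI67 in tumor spheres was, however, the highest of the 34 mitosis genes. Of these, 24 fell and 3 rose there, with a median of -0.26.

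**Figure D5:**
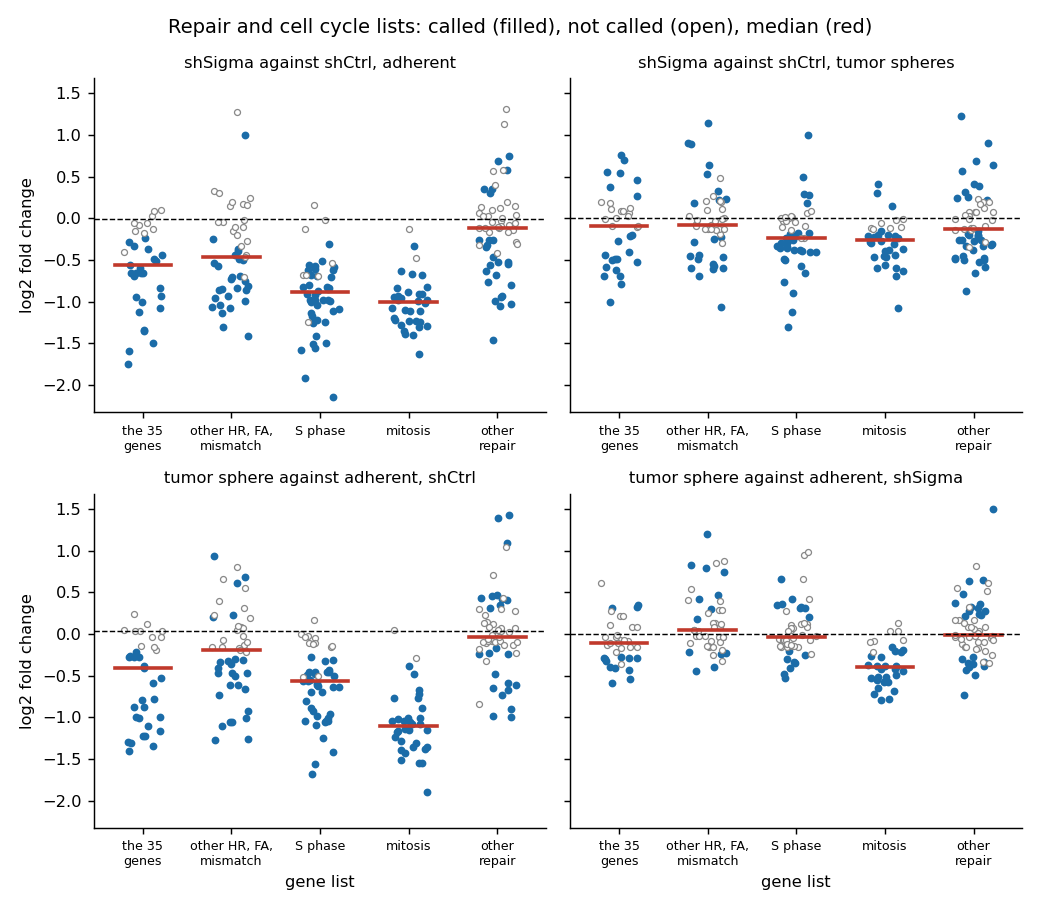
Log2 fold change of each tested gene of 5 lists in the knockdown comparisons (upper panels) and the culture comparisons (lower panels). HR and FA stand for homologous recombination and Fanconi anemia, filled points were called at an adjusted p under 0.05, red bars are list medians and the dashed line is the median of all genes tested. The median of the 35 genes is -0.57 in adherent knockdown and -0.09 in tumor sphere knockdown, between those of the mitosis genes (-1.01 and -0.26) and all genes tested (-0.01 and 0.00).

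Promoter sequence was looked at for motifs known from cell cycle genes. Of the 35 genes, 31 had an entry among the RefSeq promoters (GRCh38.p14), and the 250 bases upstream of the start were searched on both strands. The E2F words TTTCCCGC, TTTCGCGC, TTTGCCGC and TTTGGCGC occurred in 3 of 31 genes (9.68%), namely FANCA, FANCC and PMS2, against 3.4% of 27305 genes. The CHR word TTTGAA occurred in 3 of 31 (9.68%) against 16.1%, and the CCAAT box in 16 of 31 (51.6%) against 37.0%. In the sequences shown here no matches overlap. These are matches of letters, and many functional sites differ from them.

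The upstream stretches of 3 genes are shown because they stand for the behaviours above, FANCD2 with the lowest log2 fold change in adherent cells, XRCC2 with the highest in tumor spheres and FANCA as a gene that fell in both and holds 2 of the words. FANCD2 is at chr3:10026187-10026436 on the plus strand, XRCC2 at chr7:152676142-152676391 on the minus strand and FANCA at chr16:89816648-89816897 on the minus strand, all 5′ to 3′ on the gene's strand. Capitals mark the E2F word TTTGCCGC, read on the other strand, and a CCAAT box in FANCA, which begin 172 and 33 bases before the start.
FANCD2: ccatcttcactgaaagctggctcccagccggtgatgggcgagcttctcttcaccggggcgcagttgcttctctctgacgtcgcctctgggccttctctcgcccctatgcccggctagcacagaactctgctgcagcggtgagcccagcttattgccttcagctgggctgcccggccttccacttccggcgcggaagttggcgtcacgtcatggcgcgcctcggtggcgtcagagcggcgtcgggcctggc
XRCC2: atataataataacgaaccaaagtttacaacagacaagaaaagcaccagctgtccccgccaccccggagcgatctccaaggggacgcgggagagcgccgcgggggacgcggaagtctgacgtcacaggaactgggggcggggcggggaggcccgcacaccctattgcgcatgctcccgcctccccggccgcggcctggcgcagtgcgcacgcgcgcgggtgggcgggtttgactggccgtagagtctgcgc
FANCA: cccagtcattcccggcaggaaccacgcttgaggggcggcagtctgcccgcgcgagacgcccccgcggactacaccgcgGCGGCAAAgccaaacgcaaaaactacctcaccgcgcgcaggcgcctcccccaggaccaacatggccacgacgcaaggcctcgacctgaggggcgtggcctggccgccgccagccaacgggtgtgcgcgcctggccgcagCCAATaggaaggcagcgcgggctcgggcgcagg
FANCD2 and XRCC2 hold none of the words searched in these windows. The start meant here is that of the RefSeq entry, which differs from the gene limits of GENCODE. By those limits, part of the FANCD2 and XRCC2 windows and all of the FANCA window lie inside the gene. FANCC and PMS2, which hold an E2F word, were not called under knockdown in either culture.

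Some levels carry a limit from the way genes lie on the genome. In GENCODE exons, 76.9% of the exon bases of RAD50 are shared with another gene model on the same strand, and 66.0% of those of RAD54B with FSBP, so their reads may have been split or left out when genes were counted. On the opposite strand, XRCC3 shares 76.7% of its exon bases with KLC1, MSH6 22.7% with FBXO11, RAD54L 19.9% with LRRC41 and FANCA 19.6% with ZNF276. Whether the counting used strand is not given in the sources used here, so for these genes reads from the partner cannot be told apart. PMS2, CHEK2 and FANCD2 have closely similar pseudogene copies, and their counts are uncertain to that extent.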

How the data were processed

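Per the labels and the study's methods, RNA of 3 independent biological replicates per group was made into directional libraries and sequenced as single-end 75 base reads. The authors aligned the reads with STAR 2.6.1c to GRCh38.p12 and deposited raw counts per Ensembl gene, so the counts used here are the authors' own and were not normalized. The annotation and the use of strand in counting are not given in the sources used here. The study analysed them with DESeq2.

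Here each comparison was fitted on its own 6 libraries, and the interaction of hairpin and culture on all 12, with edgeR 4.0.16 in R 4.3.3 (TMM scaling, filterByExpr with a minimum count of 10, robust quasi-likelihood test, Benjamini-Hochberg adjustment over all genes tested, threshold 0.05). The scripts were tested on simulated counts. CPM levels use TMM factors over the 12 libraries. Exon lengths and overlaps come from GENCODE, and promoter sequences from RefSeq (GRCh38.p14). The alternatives were DESeq2 1.42.0, other scaling factors, other count filters, a log2 fold change over 1, 1 fit of all libraries, a replicate block, subtraction of the median of the 40 nearest tested genes, and leaving out each library. An exact permutation test of 3 against 3 cannot go below 0.1, and p-values rest on a spread shared across genes.

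The 35 genes and all gene lists were chosen with earlier results of these data known. Besides the 35, the text names MKI67, PCNA and, from the lists of other repair genes, the called genes with the 2 lowest and the 2 highest log2 fold changes in each knockdown comparison. Not every gene that falls under this rule is reported here, and the check of the hairpin's target is not reported here.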

Additional observations from a re-analysis of the deposited data

Results flagged for a closer look

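Each result below was picked out because the knockdown effect differed between adherent cells and tumor spheres by the interaction term (edgeR quasi-likelihood test, adjusted p under 0.05). The values are log2 fold changes in tumor spheres minus those in adherent cells. The difference was 1.47 for BRCA2, 1.15 for BLM, 1.13 for BRCA1, 1.01 for FANCI and 0.93 for XRCC2, all of which were called lower in adherent cells and higher in tumor spheres, although the adherent call of XRCC2 was lost in 10 of 14 alternatives, DESeq2 and other scalings among them. It was 1.09 for EXO1, 1.03 for RAD54L, 0.99 for FANCD2, 0.66 for CHEK1, 0.59 for FANCM, 0.58 for BRIP1 and 0.35 for FANCA, which were called lower in both cultures. It was 0.68 for BARD1, 0.50 for RBBP8, 0.45 for WRN and 0.30 for CHEK2, which were called in adherent cells, and 0.37 for ATR, which was called in tumor spheres. All these differences were positive.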

How the results depend on the processing

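A log2 fold change over 1, required as well, left 8 genes called in adherent knockdown, 1 in tumor sphere knockdown, 9 in the shCtrl culture comparison, 0 in the shSigma culture comparison (where edgeR called 14 without it and DESeq2 12) and 6 in the interaction. Over all genes tested it left 3.56% lower and 5.76% higher in the shSigma culture comparison. For the other comparisons, the shares in the direction of these calls are given above. Under the other alternatives the number of genes called in either direction stayed within 1.5 times its main value, but in the shSigma culture comparison, with 11 lower and 3 higher, the split moved to 11 and 6 with the regional median subtracted and, with 1 library left out, ranged from 7 to 13 lower and from 3 to 7 higher. Over all genes of that comparison, 24.9% were lower and 20.2% higher after the subtraction. With 1 library left out the shares ranged from 18.9% to 27.7% lower and from 15.4% to 28.5% higher. With each library left out in turn, the counts ranged from 21 to 25, from 20 to 23, from 20 to 27, from 10 to 19 and from 14 to 21 in the same order, and DESeq2 gave 23, 21, 24, 12 and 17. DESeq2 called 17.3% of all genes lower and 16.7% higher, then 22% and 21.4%, 19.3% and 20.5%, 14.9% and 16.7%, and 10.1% and 10.3%. With 1 library left out, all-gene shares were 17.8% to 28.3% lower and 18.6% to 24.1% higher in adherent knockdown. They were 27.5% to 30% and 26.6% to 29.8% in tumor sphere knockdown, and 11.9% to 14.3% and 10.5% to 19.1% in the interaction. A pairing of the libraries by replicate number was not apparent. Of 18 pairs with the same number, 5 had deviations from their group means that correlated over 0.1 (range -0.849 to 0.429). Deviations from a mean of 3 libraries depend on each other, so this cannot exclude a weaker pairing. Some libraries of different groups and numbers shared deviations. The correlation was 0.816 for adherent shCtrl 1 with adherent shSigma 3 and 0.782 for adherent shCtrl 3 with adherent shSigma 2. It was -0.744 for adherent shCtrl 1 with adherent shSigma 2. A block by number does not take up such a pattern, whose source was not tested. With the replicate block the counts were 22, 21, 20, 14 and 15. Of all genes tested, the block left 20% lower and 15.5% higher in adherent knockdown, and 29.6% and 29.7% in tumor sphere knockdown. It left 22.7% and 24.9% in shCtrl culture, 24.7% and 23.8% in shSigma culture, and 13.3% and 10.9% in the interaction. Directions turned with the regional median subtracted for NBN in tumor spheres (0.043, adjusted p = 0.538), for RBBP8 in shCtrl culture (0.062, adjusted p = 0.453) and, among values not called before, for CHEK2 in shCtrl culture (-0.23, adjusted p = 0.0382) and NBN in shSigma culture (0.22, adjusted p = 0.0185), by the construction of that alternative. RAD50 and RAD54B had the lowest mean levels of the 35 genes, 5.34 and 6.26 CPM.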
